A study of Mus musculus with 6 samples.

Results

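The 10 genes described here, *Gfap*, *Aqp4*, *Aldh1l1*, *S100b*, *Slc1a2*, *Slc1a3*, *Atp1b2*, *Gja1*, *Glul* and *Sox9*, mark astrocytes or carry out their transport work. Their entries were found by name, as the Ensembl identifiers that map to these symbols. All 10 had an entry among the 17193 genes listed for each library. Their transcripts were measured by poly(A) RNA sequencing in brain astrocytes of wild-type C57BL/6 mice aged 3 months, isolated with microbeads against ACSA-2, a surface antigen encoded by *Atp1b2* itself. The mice were treated with quinpirole, an agonist of the dopamine receptor DRD2, or belonged to the control group labelled Mock, which the study elsewhere calls saline, and each group had 3 libraries. The labels number the libraries within a group but do not say whether each stands for 1 mouse or for pooled mice, so the p-values below measure the spread between these libraries.

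Astrocytes clear glutamate from the synaptic cleft through 2 sodium-driven transporters, GLT-1 (*Slc1a2*) and GLAST (*Slc1a3*), and turn it into glutamine with glutamine synthetase (*Glul*). The sodium pump, of which *Atp1b2* encodes a beta subunit, maintains the gradient that drives this uptake. Connexin 43 (*Gja1*) joins astrocytes into a network, and aquaporin 4 (*Aqp4*) lets water pass at the endfeet on blood vessels. *Gfap* encodes the intermediate filament of astrocytes, *Aldh1l1* a folate enzyme used as a general astrocyte marker, *S100b* a calcium-binding protein and *Sox9* a transcription factor of the astrocyte lineage. As astrocytes mature after birth, GLT-1, connexin 30 and S100B are known to become abundant, whereas vimentin and nestin are features of immature and of reactive astrocytes.

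Values were deposited as FPKM, fragments scaled to transcript length and to the mapped fragments of the library, so that levels of different genes can be compared per length. No read counts came with them. The depth, estimated from the steps between the lowest FPKM values, was between 25500000 and 27550000 fragments in the Mock libraries and between 22350000 and 26650000 in the quinpirole libraries. At that depth *S100b*, the weakest of the 10 genes, rested on about 176 fragments in the library where it had fewest, a counting error of 7.54%. *Slc1a2* rested on at least about 1523 fragments, with a counting error of 2.56%, and for the other 8 genes the counting error was at most 1.5%. Changes were tested by limma on log2(FPKM + 1) over the 12255 genes whose FPKM averaged at least 1 across the libraries, with Benjamini-Hochberg adjustment over all of them and a threshold of 0.05. All 10 genes passed this minimum. In the whole table, 10.9% of the genes tested were past the threshold, 5.74% being higher and 5.18% lower after quinpirole, and the median log2 fold change was 0.02.

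The 2 glutamate transporter genes stood far apart in level, and the stretches before their transcription starts are shown for that pair, with no test of whether they regulate the genes. They are the reference sequence of RefSeq on GRCm38.p6, written 5′ to 3′ on the strand of the gene. *Slc1a2* lies on the plus strand, at chr2:102658659-102790784, and the stretch shown, chr2:102706188-102706355, lies inside that gene, as the longest run without annotated exon, 168 bases, in the 250 bases before a RefSeq start, and so does not reach that start. *Slc1a3* lies on the minus strand, at chr15:8634124-8710764, and its stretch is chr15:8710808-8711057. Capitals mark matches, on either strand, to the core of the nuclear factor I site (TTGGC) or to the TATA box (TATAAA).
*Slc1a2*: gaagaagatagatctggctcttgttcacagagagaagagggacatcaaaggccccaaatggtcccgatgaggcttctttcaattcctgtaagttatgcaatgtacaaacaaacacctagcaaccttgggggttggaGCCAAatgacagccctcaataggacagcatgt
*Slc1a3*: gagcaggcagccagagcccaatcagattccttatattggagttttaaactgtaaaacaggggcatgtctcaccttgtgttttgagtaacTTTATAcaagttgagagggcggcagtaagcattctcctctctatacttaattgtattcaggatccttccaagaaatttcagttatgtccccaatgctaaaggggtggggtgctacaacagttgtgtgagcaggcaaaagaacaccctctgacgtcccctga
The *Slc1a2* stretch held 1 match to TTGGC and the *Slc1a3* stretch 1 match to TATAAA. Among the 250 bases before the start of 32851 RefSeq promoters, 41.5% held TTGGC and 12.4% held TATAAA. These shares are for windows longer than the 168 bases shown for *Slc1a2*, whose whole 250-base window also held 1 match to TTGGC. A match in these windows is a description of the letters and not a bound site. For 7 of the 10 genes a promoter was matched, and the promoters of *Aqp4*, *Atp1b2* and *Sox9* were not analysed here.

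The 10 genes spanned a wide range of levels. *Gfap* was the highest, with 528 ± 36.1 FPKM in the Mock libraries (SD, n = 3), and its mean over all libraries ranked 76 among the 17193 genes. *Glul* followed with 353 ± 13.4 FPKM and *Slc1a3* with 205 ± 11.4 FPKM. *Atp1b2* at 178 ± 2.94 FPKM and *Aldh1l1* at 173 ± 8.34 FPKM overlapped, *Atp1b2* being the higher in 2 of 3 Mock libraries. Below them came *Aqp4* with 62.8 ± 2.55 FPKM, *Sox9* with 53.3 ± 1.28 FPKM and *Gja1* with 47.0 ± 2.79 FPKM. *Slc1a2* at 8.10 ± 0.562 FPKM and *S100b* at 5.63 ± 0.556 FPKM were at the bottom, close to the middle of the table, where 53.7% and 49.9% of all genes had a lower mean. In the Mock group every other pair of neighbours in this order was apart in all 3 libraries against all 3.

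After quinpirole the order of the means changed at 2 places. *Aldh1l1* lay above *Atp1b2* without overlap, and *Gja1* lay above *Sox9* in 3 of 3 libraries although their ranges overlapped. *Slc1a2* kept its place by mean but now overlapped *S100b*, being the higher in 1 of 3 libraries. These orders are descriptions and were not tested.

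**Figure D1:**
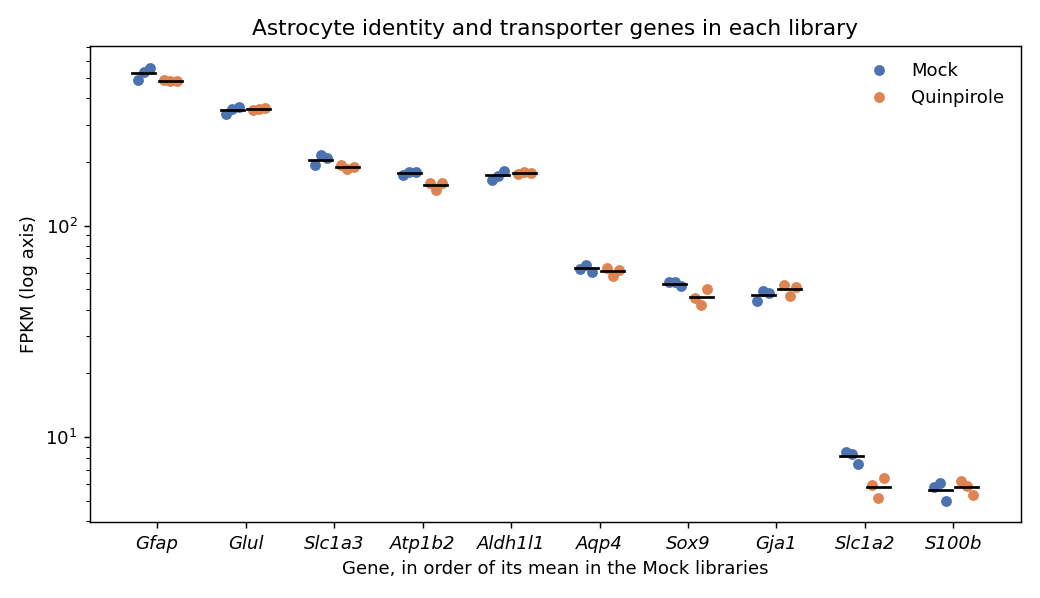
Level of each of the 10 genes in each library, in FPKM on a log axis, with genes placed by their Mock mean. Points are libraries (blue Mock, orange quinpirole) and black lines are group means. *Gfap* and *Glul* sit at the top and *Slc1a2* and *S100b* at the bottom, and the orange points lie below all blue points for 3 genes, *Slc1a2*, *Atp1b2* and *Sox9*.

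For most of the 10 genes the difference between the groups did not pass the test, and the genes that passed it were lower after quinpirole. With limma, 2 of the 10 (*Slc1a2* and *Atp1b2*) were lower and 0 were higher at an adjusted p under 0.05, compared with 5.18% lower and 5.74% higher of all genes tested. At an unadjusted p under 0.05 there were 4, against 3839 of all 12255 genes tested. The 3 quinpirole libraries were apart from the 3 Mock libraries for 3 genes, all lower, whereas 36.9% of all genes tested were apart in one direction or the other. The median log2 fold change of the 10 genes was -0.08, with 4 means higher and 6 lower.

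Among the transporters, *Slc1a2*, the gene of the main glutamate transporter of the mature forebrain, changed most. It measured 8.55, 8.29 and 7.47 FPKM in Mock libraries 1 to 3 and 5.94, 5.15 and 6.37 FPKM in quinpirole libraries 1 to 3. The lowest Mock library was above the highest quinpirole library. The mean was 28.2% lower after quinpirole, and the log2 fold change was -0.42 (95% interval -0.61 to -0.22, standard error, SE, 0.08, adjusted p = 0.0297 by limma). In bulk RNA a smaller share of cells expressing a gene and less of its RNA per cell cannot be told apart. Without Mock 1, Mock 2, quinpirole 1, quinpirole 2 or quinpirole 3 the adjusted p by limma was 0.0944, 0.104, 0.0690, 0.0822 and 0.0508, while without Mock 3 it was 0.0355, and the fold change stayed between -0.48 and -0.35. *Slc1a2* has 13133 exonic bases and belongs to the 2445 tested genes of greatest length (at least 7767 exonic bases), whose median log2 fold change was -0.11, against 0.12 for the 2445 shortest, and after a correction for length its value was -0.26 (adjusted p = 0.0575). Of the 50-base words of its longest transcript, 1.5% also occur in other genes, mostly in the antisense gene *Gm13872*.

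*Slc1a3*, the second glutamate transporter gene, measured 193, 215 and 208 FPKM in the Mock libraries and 193, 186 and 189 FPKM after quinpirole. Mock 1 lay at the level of the quinpirole libraries and the other Mock libraries above them. Its log2 fold change of -0.11 (95% interval -0.22 to -0.0047) did not pass the threshold (adjusted p = 0.147 by limma), and after the correction for length it was -0.04.
The ratio of *Slc1a2* to *Slc1a3* within a library does not depend on how the library was scaled. It was 0.0443, 0.0386 and 0.0359 in the Mock libraries and 0.0308, 0.0276 and 0.0337 after quinpirole, so that the transcripts of *Slc1a3* outnumbered those of *Slc1a2* per length in every library. The ratio was lower in 3 of 3 quinpirole libraries, by -0.37 on the log2 scale (two-sided exact permutation p = 0.10, the smallest that 3 libraries against 3 allow). It was not corrected for length, and *Slc1a2* (13133 exonic bases) is longer than *Slc1a3* (8537). With that correction the log2 fold changes of the 2 genes were -0.26 and -0.04.

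*Atp1b2*, which encodes the beta-2 subunit of the sodium pump and the antigen of the isolation, measured 174, 180 and 179 FPKM in the Mock libraries and 160, 148 and 160 FPKM after quinpirole. The groups did not overlap. Its mean was 12.3% lower, and the log2 fold change was -0.19 (95% interval -0.29 to -0.09, SE 0.04, adjusted p = 0.0382 by limma). It stayed lower when single libraries were left out, between -0.21 and -0.15, but the adjusted p by limma was then 0.0910 without Mock 1, 0.125 without Mock 2, 0.0617 without Mock 3, 0.0707 without quinpirole 1, 0.0932 without quinpirole 2 and 0.0603 without quinpirole 3. After the correction for length it was -0.21 (adjusted p = 0.0424).
*Atp1b1*, the gene of the beta-1 subunit, measured 75.4, 77.7 and 78.0 FPKM in the Mock libraries and 82.9, 80.6 and 84.1 FPKM after quinpirole, a log2 fold change of 0.10 (adjusted p = 0.105 by limma). The ratio of *Atp1b2* to *Atp1b1* was 2.31 ± 0.00747 in the Mock libraries and 1.89 ± 0.0527 after quinpirole (SD, n = 3 each). All 3 quinpirole libraries, at 1.93, 1.83 and 1.90, lay below the Mock libraries, at 2.31, 2.31 and 2.30, a log2 difference of -0.29 (two-sided exact permutation p = 0.10, again the smallest possible).

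*Glul*, whose enzyme converts the glutamate that the transporters bring in, measured 337, 358 and 363 FPKM in the Mock libraries and 352, 356 and 359 FPKM after quinpirole. The quinpirole values lay inside the Mock range. Its log2 fold change was 0.01 (95% interval -0.08 to 0.10, adjusted p = 0.860 by limma), and 15.0% of the 50-base words of its longest transcript also occur in transcripts of other genes, among them the pseudogene *Glns-ps1*.

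Among the genes of the astrocyte network and endfeet, neither of the 2 passed the threshold. *Gja1* measured 43.8, 49.0 and 48.3 FPKM in the Mock libraries and 52.3, 46.5 and 51.1 FPKM after quinpirole, so the groups overlapped. Its log2 fold change was 0.09 (95% interval -0.06 to 0.23, adjusted p = 0.375 by limma). *Gja1* has 10257 exonic bases, and after the correction for length the value was 0.19 (adjusted p = 0.102 by limma). *Gjb6*, the gene of connexin 30, lay between 0.0562 and 0.281 FPKM in the 6 libraries, too low to be tested. The ratio of *Gja1* to *Gjb6* was 362, 473 and 172 in the Mock libraries and 724, 827 and 253 after quinpirole, with overlapping groups (two-sided exact permutation p = 0.30), and it rests on that low denominator.
*Aqp4* measured 62.7, 65.4 and 60.3 FPKM in the Mock libraries and 63.3, 57.6 and 62.0 FPKM after quinpirole. The groups overlapped, and the log2 fold change was -0.04 (95% interval -0.16 to 0.07, adjusted p = 0.586 by limma).

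*Gfap*, the filament gene, measured 489, 536 and 560 FPKM in the Mock libraries and 490, 482 and 482 FPKM after quinpirole. Mock 1 lay among the quinpirole libraries, and the quinpirole values were much closer to each other (coefficient of variation 0.898% against 6.83%). Its log2 fold change was -0.12 (95% interval -0.25 to 0.0015, adjusted p = 0.163 by limma). *Vim*, which encodes vimentin, ranked 7 among all genes, between 2597 and 3006 FPKM, so that *Gfap* reached 0.194 ± 0.00749 of its level in the Mock libraries and 0.170 ± 0.00797 after quinpirole (SD, n = 3 each). The ratio was 0.188, 0.203 and 0.192 against 0.174, 0.160 and 0.174, lower in 3 of 3 quinpirole libraries (log2 difference -0.20, two-sided exact permutation p = 0.10, the smallest possible).

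**Figure D2:**
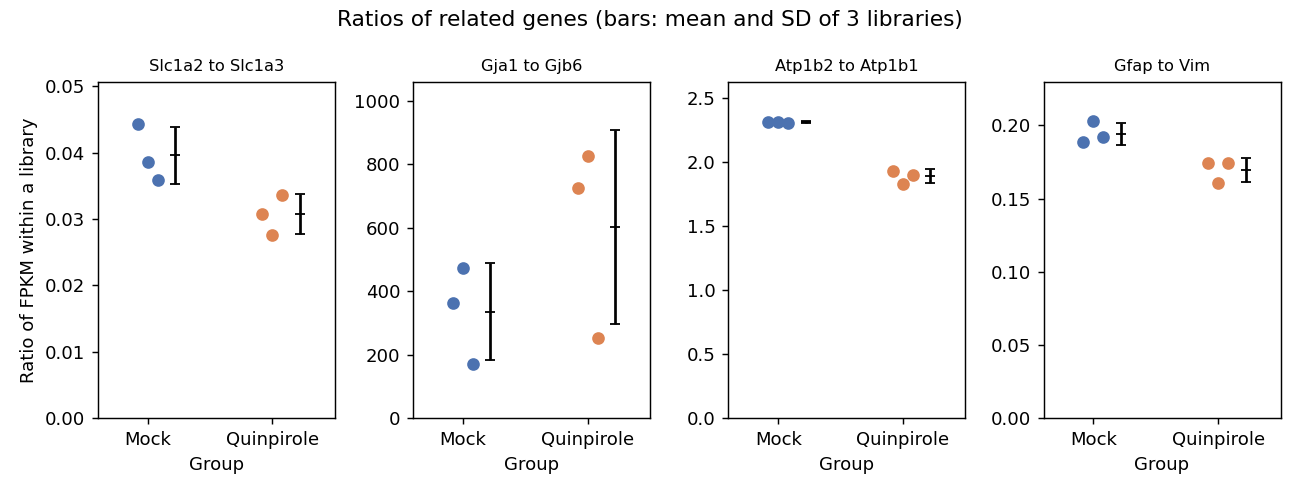
Ratio of FPKM between related genes within each library (vertical axes, no unit, each from 0), for 4 pairs. Points are libraries, and bars are the mean and SD of 3 libraries. The quinpirole points lie below all Mock points for *Slc1a2* to *Slc1a3*, *Atp1b2* to *Atp1b1* and *Gfap* to *Vim*, and the groups overlap for *Gja1* to *Gjb6*.

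Of the remaining identity genes, *Aldh1l1* measured 165, 172 and 182 FPKM in the Mock libraries and 176, 179 and 177 FPKM after quinpirole. The quinpirole values lay inside the Mock range, and the log2 fold change was 0.04 (95% interval -0.06 to 0.14, adjusted p = 0.585 by limma). For *Aldh1l1*, 8.3% of the 50-base words are shared with an antisense transcript. No strand setting was stated, so whether their reads were told apart is not known.
*S100b* measured 5.79, 6.08 and 5.01 FPKM in the Mock libraries and 6.18, 5.87 and 5.31 FPKM after quinpirole. The groups overlapped, and the log2 fold change was 0.04 (95% interval -0.16 to 0.23, adjusted p = 0.80 by limma). Its coefficient of variation, 9.88% in the Mock and 7.65% in the quinpirole group, was near the counting error given above, and *Dip2a* overlaps it on the other strand.

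*Sox9*, which specifies the astrocyte lineage, measured 54.0, 54.0 and 51.8 FPKM in the Mock libraries and 45.4, 42.3 and 50.02 FPKM after quinpirole. The groups did not overlap, and the mean was 13.8% lower. The log2 fold change was -0.21 (95% interval -0.35 to -0.07, SE 0.06), but it missed the threshold (adjusted p = 0.0640 by limma), as it did under each of the 17 alternatives run, with an adjusted p from 0.0507 to 0.174.

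**Figure D3:**
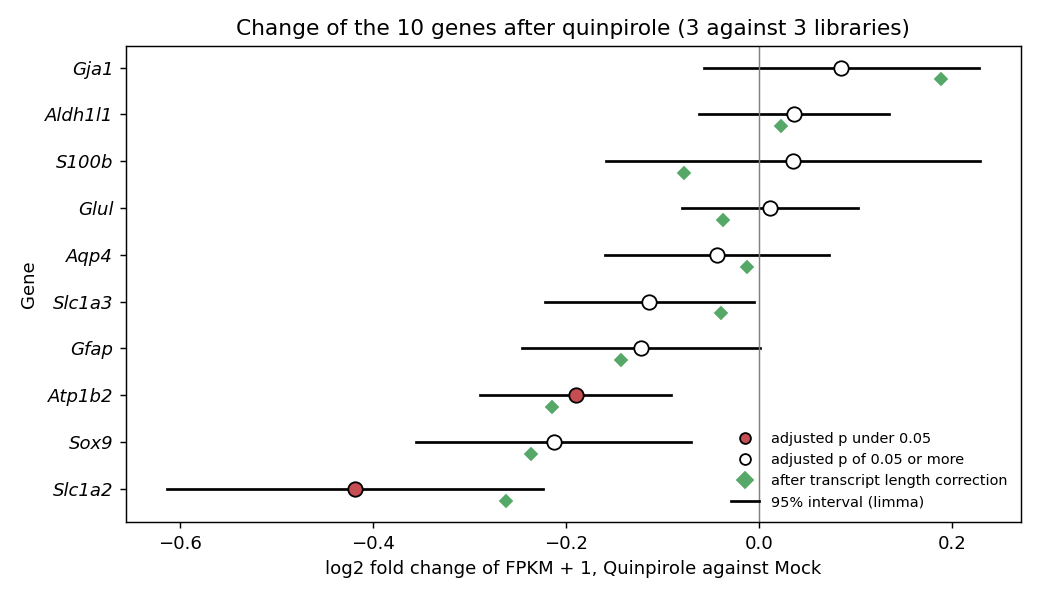
Log2 fold change of FPKM + 1 between quinpirole and Mock for each of the 10 genes (circles, with 95% intervals from limma, 3 libraries against 3). Red circles mark an adjusted p under 0.05, and green diamonds the value after correction for transcript length. *Slc1a2* lies farthest from 0 at -0.42, its diamond at -0.26, and the intervals of 6 genes, *Gja1*, *Aldh1l1*, *S100b*, *Glul*, *Aqp4* and *Gfap*, extend on both sides of 0.

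Most of 77 other genes of astrocyte biology, in 6 lists, also did not pass the test. Of these, 76 had an entry, 68 reached the minimum FPKM and 8 were past the threshold by limma, 2 higher and 6 lower, against 5.74% and 5.18% of all genes tested. The median log2 fold change of the 68 was -0.02, and the groups were apart for 11 higher and 16 lower genes, against 36.9% of all genes in either direction. With single libraries left out, 10 of these genes were past the threshold without Mock 3, 1 without quinpirole 3 and 0 without Mock 1, Mock 2, quinpirole 1 or quinpirole 2, while 15 to 24 had an unadjusted p under 0.05. In the same fits 2883 to 3912 of all genes had an unadjusted p under 0.05, out of 12247 to 12267 tested.

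Among 17 transporters, pumps and channels tested, 0 were past the threshold higher and 2 lower, against 5.74% and 5.18% of all genes tested. Their median log2 fold change was -0.07, with 7 means higher and 10 lower. *Kcnj10*, the inward rectifier Kir4.1 that takes up potassium, measured 147, 151 and 143 FPKM in the Mock libraries and 128, 119 and 128 FPKM after quinpirole. The groups were apart by a log2 fold change of -0.23 (SE 0.04 and adjusted p = 0.0251 by limma), and -0.22 (adjusted p = 0.0350) after the correction for length. *Slc4a4*, a sodium bicarbonate cotransporter, fell from 45.1 ± 2.97 to 36.8 ± 2.46 FPKM (SD, n = 3 each), a log2 fold change of -0.29 (adjusted p = 0.0390 by limma), and -0.17 (adjusted p = 0.0755) after that correction.

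Among 7 genes of junctions and endfeet tested, 0 were past the threshold higher and 2 lower, against 5.74% and 5.18% of all genes tested. Their median log2 fold change was -0.09. *Dtna*, which encodes the scaffold protein alpha-dystrobrevin, fell from 22.7 ± 0.809 to 19.3 ± 0.599 FPKM (adjusted p = 0.0303 by limma), but its log2 fold change of -0.23 was -0.02 (adjusted p = 0.833) after the correction for length. *Clcn2*, a chloride channel gene, fell from 14.0 ± 0.582 to 12.02 ± 0.144 FPKM, a log2 fold change of -0.20 (adjusted p = 0.0410 by limma) and of -0.18 (adjusted p = 0.0798) after the correction. *Mlc1*, which encodes a membrane protein of the endfeet, had 389 ± 16.9 and 399 ± 3.19 FPKM and did not pass the test, nor did *Ezr*, which encodes a linker of membrane and actin, with 188 ± 0.581 and 200 ± 5.71 FPKM.

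Of 12 transcription factor genes tested, 2 were past the threshold higher and 1 lower, against 5.74% and 5.18% of all genes tested. Their median log2 fold change was -0.08. *Id3*, an inhibitor of basic helix-loop-helix factors, measured 314, 299 and 314 FPKM in the Mock libraries and 365, 378 and 363 FPKM after quinpirole. The groups were apart by a log2 fold change of 0.25 (SE 0.04 and adjusted p = 0.0225 by limma), and 0.15 (adjusted p = 0.0460) after the correction for length. *Hes1*, a target of Notch signalling, rose from 27.1 ± 1.46 to 34.5 ± 1.19 FPKM, a log2 fold change of 0.33 (adjusted p = 0.0225 by limma), and 0.24 (adjusted p = 0.0617) after that correction. *Nfix*, a nuclear factor I gene, fell from 84.5 ± 3.52 to 68.9 ± 5.52 FPKM, a log2 fold change of -0.29 (adjusted p = 0.0342 by limma), and -0.24 (adjusted p = 0.0514) after it. *Sox2* had 120 ± 2.33 and 117 ± 5.63 FPKM and did not pass the test.

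No gene passed the test among the 5 genes of glutamate metabolism or the 14 other astrocyte genes (0 of each by limma), whose median log2 fold changes were 0.02 and 0.01. At an unadjusted p under 0.05 there were 2 and 1, against 3839 of all 12255 genes tested. *Got2*, which encodes mitochondrial aspartate aminotransferase, had 72.2 ± 3.64 and 80.6 ± 2.02 FPKM (adjusted p = 0.0650), and *Glud1*, which encodes glutamate dehydrogenase, had 107 ± 1.23 and 108 ± 0.309 FPKM. *Cst3*, the cystatin C gene, and *Apoe*, the apolipoprotein E gene, ranked 6 and 9 among all genes, and their log2 fold changes were 0.12 and 0.01.

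Levels of genes tied to maturity were uneven. Of 15 genes listed as immature or cycling, 13 reached the minimum FPKM, with a median log2 fold change of -0.03. By limma 0 were past the threshold higher and 1 lower, against 5.74% and 5.18% of all genes tested. The 1 lower gene was *Nes*, which encodes nestin. It measured 321, 321 and 303 FPKM in the Mock libraries and 281, 268 and 283 FPKM after quinpirole. All quinpirole values were below all Mock values, and the log2 fold change was -0.18 (SE 0.04 and adjusted p = 0.0369 by limma), and -0.15 (adjusted p = 0.0470) after the correction for length. *Fabp7*, which encodes the brain fatty acid binding protein of radial glia, lay between 622 and 772 FPKM, and its log2 fold change was 0.18 (adjusted p = 0.0693). Markers of division were lower, with *Top2a* between 25.4 and 31.6 FPKM and *Mki67* between 11.3 and 15.2 FPKM. *Hes5* and *Grm5* were below 1 FPKM.
Several genes known from adult astrocytes had low levels, with 17.1% to 29.7% of all genes below the 5 given here (*Ntsr2*, *Grm3*, *Slc7a10*, *Slc6a11* and *Gjb6*). *Ntsr2*, a neurotensin receptor gene, lay between 0.812 and 1.18 FPKM, *Grm3*, a metabotropic glutamate receptor gene, between 0.465 and 0.676 FPKM, and *Slc7a10*, a serine transporter gene, between 0.189 and 0.850 FPKM. *Slc6a11*, the GABA transporter GAT-3, lay between 0.871 and 1.44 FPKM. With *Gjb6*, *Slc1a2* and *S100b* as given above, this placed such genes far below *Vim*, *Nes* and *Fabp7* per length in both groups, while *Gfap*, *Glul*, *Slc1a3* and *Aldh1l1* were high. The genes named in this comparison of maturity other than *Vim*, *Nes*, *Fabp7* and *Gjb6* were picked from the lists after their values were seen, and no test was made of maturity.

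**Figure D4:**
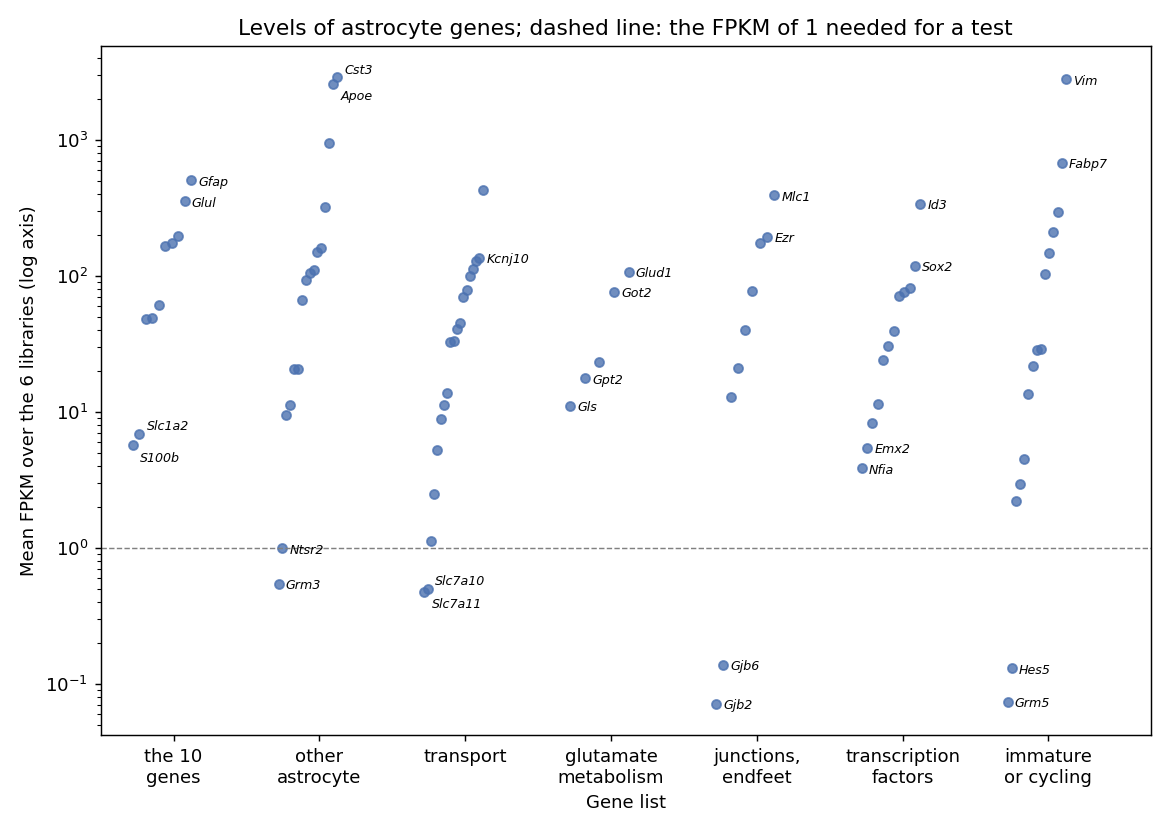
Mean FPKM over the 6 libraries (log axis) of each gene in the list of 10 and in the 6 other astrocyte lists, with most of the lowest and highest genes of each list named. The dashed line marks the FPKM of 1 needed for a test. *Vim* and *Fabp7* lie above *Gfap*, whereas 8 genes, among them *Gjb6*, *Slc7a10* and *Grm3*, lie below the line.

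Markers of other cell types were present beside those of astrocytes, and some of them moved with the group. The FPKM summed over all genes was also higher after quinpirole, at 425244 to 437164 against 401769 to 413730 in the Mock libraries. The sums below were not adjusted for this, and which of them overlap between the groups depends on that adjustment. The summed FPKM of 8 microglial markers was 765 to 814 in the Mock and 818 to 888 in the quinpirole libraries, led by *C1qa* at 206 ± 9.48 and 238 ± 14.1 FPKM. The log2 fold change of *C1qa* was 0.21, and 0.08 after the correction for length. Of the 8 markers, the groups were apart for 2 higher and 2 lower, against 36.9% of all genes tested in either direction. The lower ones were *Csf1r* (means 56.2 and 50.2 FPKM) and *Cx3cr1* (36.2 and 33.2 FPKM). The median log2 fold change of the 8 was 0.08, and -0.02 after that correction. The summed FPKM of 5 markers of oligodendrocyte precursors was 307 to 316 and 330 to 352, led by *Olig1* (log2 fold change 0.15, adjusted p = 0.0490 by limma, and 0.059 with adjusted p = 0.366 after the correction for length). In the same list *Pdgfra*, at 0.656 ± 0.0787 and 0.471 ± 0.107 FPKM, and *Gpr17*, at 0.237 ± 0.0679 and 0.141 ± 0.0205 FPKM, were too low to be tested, and their quinpirole values lay below all Mock values. That of 8 neuronal markers was 71.1 to 76.4 and 83.1 to 89.6, nearly all of it *Stmn2* and *Tubb3*. For *Stmn2* the log2 fold change was 0.22 (adjusted p = 0.0322 by limma), while *Snap25*, *Syt1*, *Rbfox3*, *Slc17a7*, *Gad1* and *Nefl* were under 1 FPKM. The sum of 5 mural markers, 2546 to 2716 and 2732 to 2902, was almost wholly *Acta2*, which encodes smooth muscle actin and ranked 8 among all genes, with *Rgs5*, *Kcnj8* and *Vtn* under 1 FPKM. The sums overlapped between the groups for oligodendrocyte markers (158 to 178 and 165 to 176), endothelial markers (47.3 to 48.7 and 46.4 to 49.6) and ependymal and choroid plexus markers (148 to 166 and 147 to 157), where *Cnp*, *Slco1a4* and *Foxj1* were the highest. The pericyte gene *Pdgfrb* fell from 26.2 ± 1.10 to 21.2 ± 0.421 FPKM (log2 fold change -0.30, adjusted p = 0.0227 by limma). With single libraries left out, the adjusted p by limma was 0.0718 to 0.147 for *Olig1*. Without Mock 3 it was 0.0381 for *Stmn2* and 0.0270 for *Pdgfrb*, and without Mock 1, Mock 2, quinpirole 1, quinpirole 2 or quinpirole 3 it was 0.0574 to 0.113 and 0.0508 to 0.0910. The part of these cells in the lower *Slc1a2*, *Atp1b2* and *Kcnj10* was not tested. The summed FPKM of the 10 astrocyte genes was 1534 to 1665 in the Mock libraries and 1509 to 1544 after quinpirole. These ranges overlapped, but they too were not adjusted for the higher FPKM total after quinpirole. The sums therefore do not show that other cell types moved while the astrocyte genes did not.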

How the data were processed

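RNA was sequenced from astrocytes isolated with anti-ACSA-2 microbeads after enzymatic digestion of the brain and a Percoll step. The libraries were prepared with a NEBNext Ultra kit, and no strand setting was stated. The authors mapped paired-end reads with TopHat2 to GRCm38, per the submitters' processing notes, kept perfect matches and single mismatches, and deposited FPKM per Ensembl gene and library. The program and annotation behind FPKM are not given in the sources used here. Of 17193 identifiers, 17090 matched a symbol. Lengths and positions were read from GENCODE M21 (GRCm38), and the authors may have used another annotation.

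Depth was estimated from 1254 genes with 1 transcript, where FPKM multiplied by length and depth should give whole fragments. In a library, 60.2% to 68.9% of 167 to 206 low values were within 0.1 of a whole number, so fragment numbers are approximate and cover counting error only. Fragments of a gene were taken over its longest transcript.

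Tests used limma 3.58.1 in R 4.3.3 (lmFit, eBayes with trend, two-sided), with a pseudocount of 1, which understates fold changes of weakly expressed genes. The correction for length subtracts from each library a loess fit (span 0.3) on log2 exonic length, and would also remove a true change related to length. Exact permutation tests over libraries were used for ratios. The scripts were tested on simulated data. Tables and figures used Python 3.11.15, numpy 2.4.6, pandas 2.3.3 and matplotlib 3.10.9. The alternatives were other pseudocounts, filters, scalings and variance estimates, corrections for length and GC content, a replicate block and leaving out each library.

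The 10 genes and the lists were chosen with earlier results of these data known. Named from each astrocyte list were the genes past the threshold and the 2 with the highest mean, from each list of another cell type its highest marker, and the second gene of each ratio. Other markers are named because their values were seen. The list gene *Pc* had no entry. Some list genes, counted with their lists, are not reported here by name.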

Additional observations from a re-analysis of the deposited data

How the results depend on the processing

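The number of the 10 genes past the threshold was 2 in the test as designed, 0 without a filter on low values, 4 with quantile normalization (*Gfap*, *Slc1a3*, *Slc1a2* and *Atp1b2*, all lower), 1 with eBayes without trend and 1 with the transcript length correction. For the other astrocyte genes it was 8, and 4, 11, 4 and 3 under the same settings, and for all genes 1339, and 633, 783 (283 higher, 500 lower, against 704 and 635), 714 (293 higher, 421 lower) and 519. Without single libraries these numbers ranged from 0 to 1, from 0 to 10 and from 3 (without Mock 2) to 1182 (without Mock 3). Libraries of the same number did not deviate together (correlations 0.026, -0.066 and -0.10), and for different numbers the correlations ran from -0.097 to 0.15. The labels do not say whether the numbers pair the libraries, and 3 libraries per group are too few to decide it. With the replicate block 0, 0 and 2 genes were past the threshold by limma, and with the block and length correction together 0, 0 and 0, while 3, 17 and 3308 genes, and 5, 17 and 2734 genes, had an unadjusted p under 0.05. Beyond the samples and degrees of freedom taken away by some settings, the cause was not tested.

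For the 10 genes, under the alternatives 139 of 170 fold changes kept direction and call, 19 lost the call, 2 gained one and 10 changed sign. For the other named genes the numbers were 315, 97, 5 and 25 of 442. *Slc1a2* was past the threshold in 8 of 17 alternatives, *Atp1b2* in 7, *Gfap* and *Slc1a3* in 1 each and the other 6 in 0. The sign changed with quantile normalization for *Aldh1l1* (-0.076), *Glul* (-0.11), *Apoe* (-0.0063), *Glud1* (-0.066), *Mlc1* (-0.085), *Ezr* (-0.036), *Vim* (-0.031), *Fabp7* (-0.0265) and *Cnp* (-0.079). With the length correction, alone and with the replicate block, it changed for *S100b* (-0.077), *Glul* (-0.037), *Apoe* (-0.075), *Glud1* (-0.0036), *Mlc1* (-0.028), *Cnp* (-0.0175) and *Slco1a4* (0.032), and with median ratio scaling for *Glul* (-0.0013). Without single libraries the range was -0.034 to 0.087 for *S100b*, -0.0196 to 0.032 for *Glul*, -0.027 to 0.079 for *Apoe*, -0.0202 to 0.067 for *Cnp* and -0.034 to 0.015 for *Slco1a4*. The 4 ratios kept their direction under the alternatives run. Taken as 3 pairs by number, an exact sign-flip test gave p = 0.25 for each ratio, and no smaller p is possible with 3 pairs.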
